A study of Mus musculus with 8 samples.

Results

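Receptors for tachykinins and for acetylcholine are the proteins through which excitatory motor nerves of the gut act on muscle and on interstitial cells of Cajal (ICC). The genes described here are Tacr1, Tacr2 and Tacr3, which encode the receptors preferred by substance P, neurokinin A and neurokinin B, and Chrm3, which encodes the muscarinic receptor that drives contraction of gut smooth muscle. They were taken with every probe set whose annotation named 1 of these symbols alone, which gave 6 of the 45037 probe sets tested and 4 of 18193 genes: 3 probe sets for Tacr3 and 1 each for Tacr1, Tacr2 and Chrm3. All 4 receptors are coupled to the Gq protein, which turns on phospholipase C beta and releases calcium through the IP3 receptor. In the gut wall, the receptor encoded by Tacr1 has been used as a marker of ICC of the deep muscular plexus, and that encoded by Tacr3 is known mainly from enteric neurons.

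Expression was measured on 8 single-channel oligonucleotide arrays with RNA of small intestine taken from BALB/c mice 6 to 9 days old. There were 3 arrays of ICC-DMP cells, 3 of ICC-MY cells and 2 of tunica muscularis, which is the gut's muscle coat and serves as the reference tissue. In this field DMP stands for the deep muscular plexus and MY for the myenteric plexus. The labels give no genotype or treatment, and no source used here says how the cells were isolated or how many animals gave a sample. In the titles these are biological replicates, with no animal named, and the tests set each difference against the spread among these samples, which may be technical.

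Values are log2 expression values, so a difference of 1 is a doubling. The median probe set read 4.18 to 4.30 on each array. Values were less spread out on 2 arrays, the first replicates of ICC-MY (SD over probe sets 1.98) and of tunica muscularis (2.06), than on the rest (2.22 to 2.31), and these are called the narrow-range arrays below. Actin control probes at the 3' end exceeded those at the 5' end by 4.66 on the third ICC-DMP array, 4.28 on the third ICC-MY array and 2.53 to 3.53 elsewhere. Of 10 ICC marker genes measured, 4 had a probe set called above tissue in ICC-DMP, 1 was called below it (Slc12a2) and 5 were not called. In ICC-MY 9 were called above tissue and 1 was not called. Kit, the receptor that defines these cells, was above tissue in each class. All 10 smooth muscle markers had a probe set called lower in ICC-MY, and 7 in ICC-DMP. Of all 18193 genes, 7.67% had a probe set called higher and 9.85% lower in ICC-DMP against tissue, and 6.89% and 12.1% in ICC-MY against tissue. A value was called at an adjusted p under 0.05 in limma's moderated test, with Benjamini-Hochberg adjustment over all 45037 probe sets, and every p below is adjusted in that way. The values have no detection calls, so a low value cannot be told apart from background.

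In these data 1 of the 4 receptor genes was called, Tacr3, and it was higher in tunica muscularis than in either class of ICC. Of the 6 receptor probe sets, 2 were called in ICC-DMP against tissue and the same 2 in ICC-MY against tissue, both lower in the ICC and both of Tacr3. Over all probe sets 12.6% were called in ICC-DMP against tissue (7.16% higher, 5.4% lower) and 12.6% in ICC-MY against tissue (5.95% higher, 6.68% lower). These backgrounds depend on single arrays. In ICC-DMP against tissue 3223 were higher and 2434 lower, but 2768 and 3420 without the narrow-range arrays, 2081 and 2311 without tissue replicate 1, and 2304 and 1622 without ICC-DMP replicate 1. In ICC-MY against tissue 2681 were higher and 3010 lower, but 1584 and 3079 without tissue replicate 1. Between the ICC classes 0 of the 6 passed, and 0 had an unadjusted p under 0.05, where 7.41% of all probe sets passed (4.88% higher and 2.52% lower in ICC-DMP) and 17.4% had an unadjusted p under 0.05. That background was 3335 probe sets, 2199 higher and 1136 lower in ICC-DMP. It was 2641 and 2112 under quantile normalization, 2557 and 2348 without the narrow-range arrays, 5236 in all with the replicate number as a block, and 1985 and 2165 without ICC-DMP replicate 1 and replicate 2.

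The start of Tacr3 is shown because this is the receptor gene that was called. The sequence is the RefSeq stretch of 250 bases before the start, on the + strand of GRCm38.p6 at chr3:134828757-134829006. Capitals mark the letters CAGCTG, an E-box of the kind recognised by basic helix-loop-helix factors. They also mark the core letters of the TATA box, TATAAA. Each was searched on both strands.
Tacr3: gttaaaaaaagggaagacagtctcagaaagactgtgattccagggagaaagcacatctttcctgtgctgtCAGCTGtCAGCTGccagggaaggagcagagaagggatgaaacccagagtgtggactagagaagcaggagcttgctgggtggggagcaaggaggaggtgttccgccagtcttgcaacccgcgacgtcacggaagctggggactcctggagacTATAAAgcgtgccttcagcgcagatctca
The window holds CAGCTG at 2 places and TATAAA at 1. That of Tacr1, which was not called, holds CAGCTG at 1 place, and those of Tacr2 and Chrm3 hold neither. In windows of the same length before 32851 starts, 13% hold CAGCTG and 12.4% hold TATAAA. The letters were chosen after this sequence had been read, and a match is a description of the sequence and no evidence of binding.

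Tacr3 had 3 probe sets, and they gave different pictures. Probe set 1437029_at read 3.13, 3.14 and 3.29 in ICC-DMP replicates 1 to 3, 3.37, 2.88 and 3.08 in ICC-MY, and 4.63 and 4.53 in tunica muscularis. All 6 ICC arrays lay below both tissue arrays, with a gap of at least 1.17. Arrays did not overlap for 39.1% of all probe sets between ICC-DMP and tissue (18.6% lower in ICC-DMP), for 35.2% between ICC-MY and tissue (15.9% lower in ICC-MY) and for 23.9% between the classes (10.8% lower in ICC-DMP). Group means were 3.19 ± 0.09 (SD, n = 3), 3.11 ± 0.24 (n = 3) and 4.58 ± 0.07 (n = 2). The difference from tissue was -1.40 in ICC-DMP (SE 0.16, 95% confidence interval -1.78 to -1.02, adjusted p = 0.000838). In ICC-MY it was -1.47 (SE 0.16, interval -1.85 to -1.09, adjusted p = 0.000718). No fold is given, because the ICC values are low ones that cannot be told apart from background.

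Probe set 1440803_x_at of Tacr3, whose suffix marks probes that may also match other sequences, showed a larger difference. It read 3.18, 2.95 and 2.71 in ICC-DMP, 3.19, 2.50 and 2.74 in ICC-MY, and 5.10 and 5.53 in tunica muscularis. Again the ICC and tissue arrays did not overlap. Means were 2.95 ± 0.23 (SD, n = 3), 2.81 ± 0.35 (n = 3) and 5.32 ± 0.31 (n = 2). The difference from tissue was -2.37 in ICC-DMP (SE 0.24, interval -2.93 to -1.81, adjusted p = 0.000402) and -2.50 in ICC-MY (SE 0.24, interval -3.06 to -1.95, adjusted p = 0.000359). Here too the ICC values may be background, so no fold is given. Across the 8 arrays this probe set and 1437029_at had a Pearson r of 0.97, a description over arrays that share groups.

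The remaining probe set of Tacr3, 1450278_at, which the annotation pairs with the RefSeq mRNA, did not follow them. It read 4.05, 4.23 and 4.23 in ICC-DMP, 4.19, 4.29 and 4.48 in ICC-MY, and 4.21 and 4.38 in tunica muscularis. The 3 groups overlapped. The difference from tissue was -0.13 in ICC-DMP (SE 0.14, interval -0.46 to 0.20, adjusted p = 0.741) and 0.03 in ICC-MY (SE 0.14, interval -0.31 to 0.36, adjusted p = 0.953). On every array it lay within 0.26 of the array median, and its Pearson r with the other Tacr3 probe sets was 0.10. It has the highest mean of the 3, so a gene represented by its brightest probe set would show no call for Tacr3. The mean of the 3 probe sets did pass against tissue, at -1.30 in ICC-DMP (adjusted p = 0.000448) and -1.32 in ICC-MY (adjusted p = 0.000342). This is common on these arrays. Of 2253 genes with several probe sets and at least 1 called in ICC-DMP against tissue, the brightest was not called in 984 (43.7%), and in ICC-MY against tissue this held for 867 of 2389 (36.3%).

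**Figure D1:**
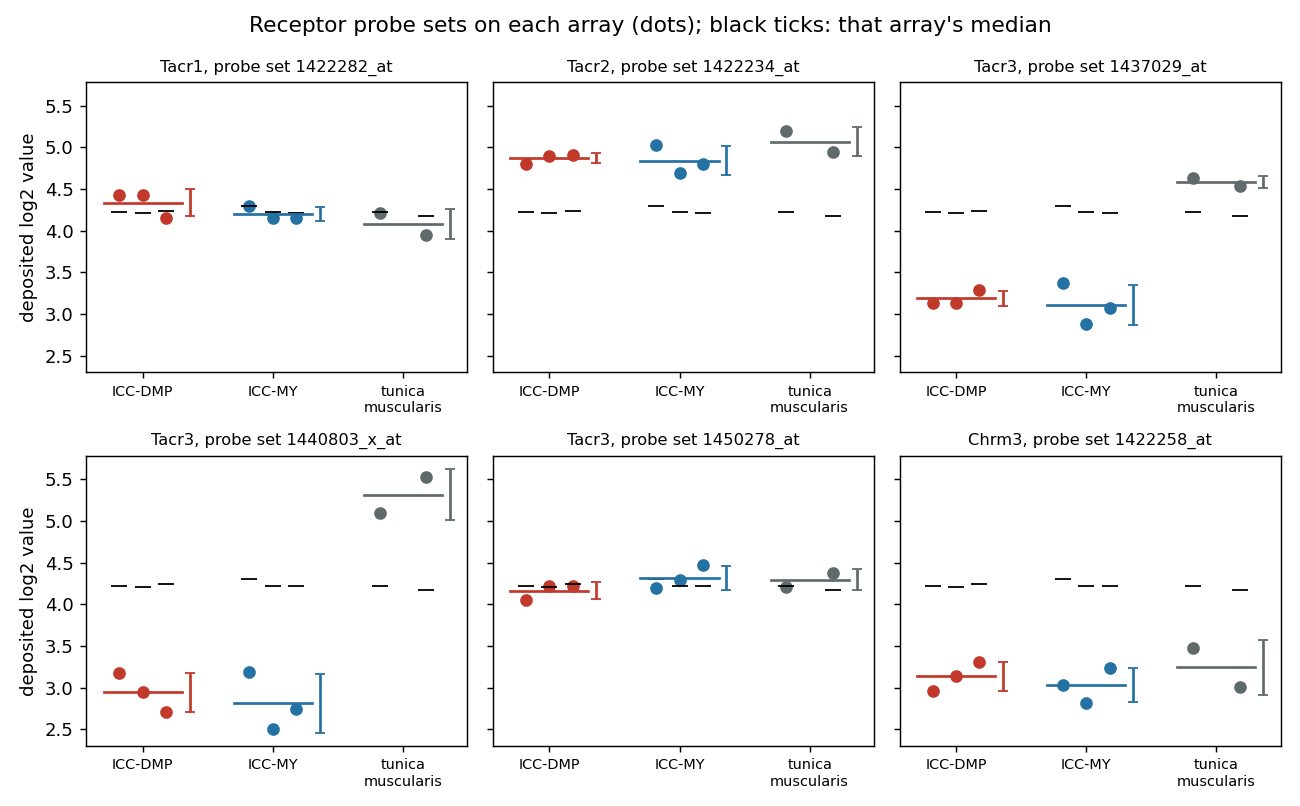
Deposited log2 value (vertical axis) of each receptor probe set on each of the 8 arrays, by group. Dots are arrays, from left to right replicates 1 to 3 (1 and 2 in tissue), coloured lines the group means, bars at the right the SD, and black ticks the median of that array. In the panels of Tacr3 1437029_at and 1440803_x_at the 2 tissue arrays lie above all 6 ICC arrays, while in the other 4 panels the groups lie close together.

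The called Tacr3 differences kept their call without the 2 arrays of narrow range, where tissue is a single array whose spread is taken from the other groups. They were then -1.35 and -2.59 in ICC-DMP and -1.55 and -2.91 in ICC-MY, for 1437029_at and 1440803_x_at in that order. A filter on dim probe sets removed both, since their means over the 8 arrays (3.51 and 3.49) lay under the limit of 3.74.

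Between the ICC classes Tacr3 was not called in any probe set. ICC-DMP minus ICC-MY was 0.08 for 1437029_at (interval -0.26 to 0.42, adjusted p = 0.874), 0.13 for 1440803_x_at (interval -0.37 to 0.63, adjusted p = 0.846) and -0.15 for 1450278_at (interval -0.45 to 0.14, adjusted p = 0.66). These intervals reach differences of up to 0.63 in size, and neither class can be ordered above the other.

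Tacr1, the substance P receptor gene, was measured by 1422282_at. It read 4.43, 4.43 and 4.15 in ICC-DMP, 4.30, 4.15 and 4.15 in ICC-MY, and 4.21 and 3.95 in tunica muscularis. ICC-DMP replicates 1 and 2 were the highest, but ICC-DMP replicate 3 lay among the others and the groups overlapped. The ICC-DMP mean was 4.34 ± 0.16 (SD, n = 3), the ICC-MY mean 4.2 ± 0.09 (n = 3) and the tissue mean 4.08 ± 0.18 (n = 2). ICC-DMP minus tissue was 0.26 (SE 0.15, interval -0.09 to 0.61, adjusted p = 0.411), ICC-MY minus tissue 0.12 (interval -0.23 to 0.47, adjusted p = 0.74) and ICC-DMP minus ICC-MY 0.14 (interval -0.17 to 0.45, adjusted p = 0.723). The order of the means was ICC-DMP, ICC-MY, tissue, and neighbours in it did not differ beyond their spread. On each array the value lay between 0.23 below and 0.22 above the array median, so these arrays do not show whether the probe set detects the transcript. ICC-DMP replicates 1 and 2 hold the same value to the last deposited digit, as 4.71% of all probe sets do on at least 2 arrays.

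Tacr2, the neurokinin A receptor gene known from gut smooth muscle, was measured by 1422234_at. It read 4.80, 4.90 and 4.91 in ICC-DMP, 5.03, 4.69 and 4.80 in ICC-MY, and 5.19 and 4.95 in tunica muscularis. The tissue arrays lay above all 3 ICC-DMP arrays by 0.04 and overlapped those of ICC-MY. Such a separation, lower in ICC-DMP, was present in 18.6% of all probe sets. ICC-DMP minus tissue was -0.20 (SE 0.15, interval -0.55 to 0.15, adjusted p = 0.561), ICC-MY minus tissue -0.23 (SE 0.15, interval -0.58 to 0.12, adjusted p = 0.448) and ICC-DMP minus ICC-MY 0.03 (interval -0.28 to 0.34, adjusted p = 0.955). It read between 0.47 and 0.97 above the array median on every array.

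Chrm3, the muscarinic M3 receptor gene, was measured by 1422258_at. It read 2.97, 3.14 and 3.31 in ICC-DMP, 3.04, 2.82 and 3.24 in ICC-MY, and 3.48 and 3.01 in tunica muscularis. The groups overlapped, and the 2 tissue arrays were farther apart than any group means. ICC-DMP minus tissue was -0.11 (SE 0.20, interval -0.56 to 0.35, adjusted p = 0.863), ICC-MY minus tissue -0.21 (SE 0.20, interval -0.67 to 0.24, adjusted p = 0.62) and ICC-DMP minus ICC-MY 0.11 (SE 0.18, interval -0.30 to 0.51, adjusted p = 0.852). The differences from tissue had the opposite sign without tunica muscularis replicate 1 (0.12 and 0.02). On every array the probe set lay at least 0.75 below the array median, also in the muscle coat, a tissue known for this receptor.

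**Figure D2:**
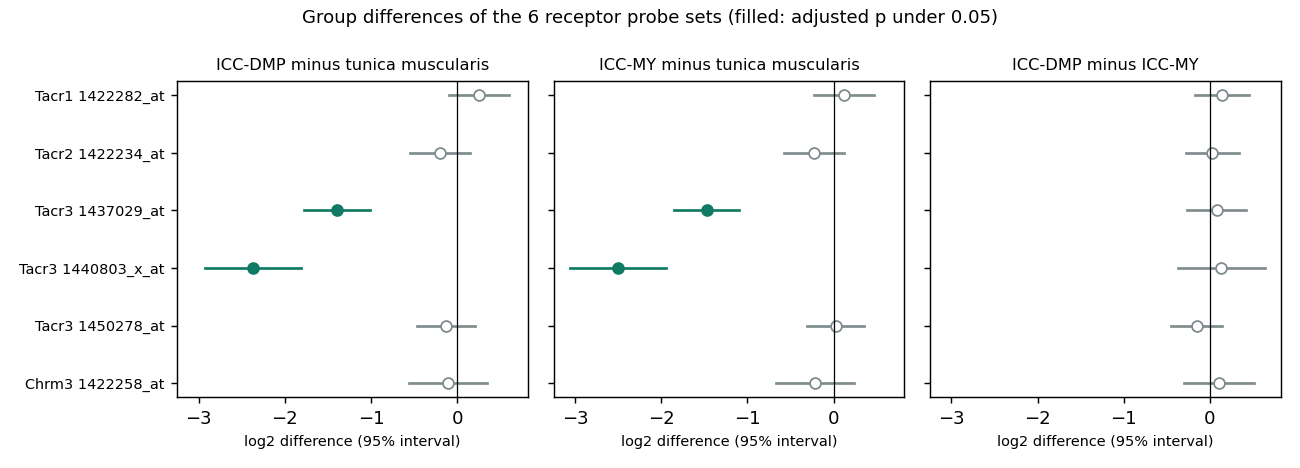
Log2 difference between groups (horizontal axis) of the 6 receptor probe sets in the 3 comparisons, with 95% confidence intervals from limma. Filled points passed at an adjusted p under 0.05: Tacr3 1437029_at and 1440803_x_at against tissue, at -1.40 and -2.37 in ICC-DMP and -1.47 and -2.50 in ICC-MY. The other intervals include 0.

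Genes of nearest pattern were sought among probe sets that name 1 gene, leaving out provisional names such as clone numbers, with 1 probe set per gene. Those whose values ran most closely with the called Tacr3 probe sets over the 8 arrays included several known from neurons. For 1437029_at these were the neuropeptide gene Npy (Pearson r 0.995), the prohormone convertase gene Pcsk1 (0.995), the ectonucleotidase gene Entpd3 (0.994), Depdc1b (0.993) and Chrna3, which encodes the nicotinic receptor subunit of autonomic ganglia (0.993). For 1440803_x_at they were Phox2a, a transcription factor of autonomic neurons (0.995), the transporter gene Abca9 (0.993), Myt1l, a neuronal transcription factor (0.993), the carbonyl reductase gene Cbr2 (0.992) and Gap43, a protein of growing axons (0.992). Each correlation is over the same 8 arrays, 2 of which are tissue, and each describes mainly the gap between tissue and ICC. Chrna3 averaged 5.62 ± 0.09 (SD, n = 2) in tissue, 3.54 ± 0.06 (n = 3) in ICC-DMP and 3.53 ± 0.23 (n = 3) in ICC-MY. Phox2a averaged 4.29 ± 0.19 (n = 2), 2.78 ± 0.11 (n = 3) and 2.75 ± 0.11 (n = 3) in that order. Of the 8 of these 10 genes with a RefSeq promoter in the table used, 1 holds CAGCTG within 250 bases before a start. It is Myt1l, at 1 of its several starts. TATAAA is held by 0 of the 8. Over all starts the shares were 13% and 12.4%, counted by start and not by gene.

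**Figure D3:**
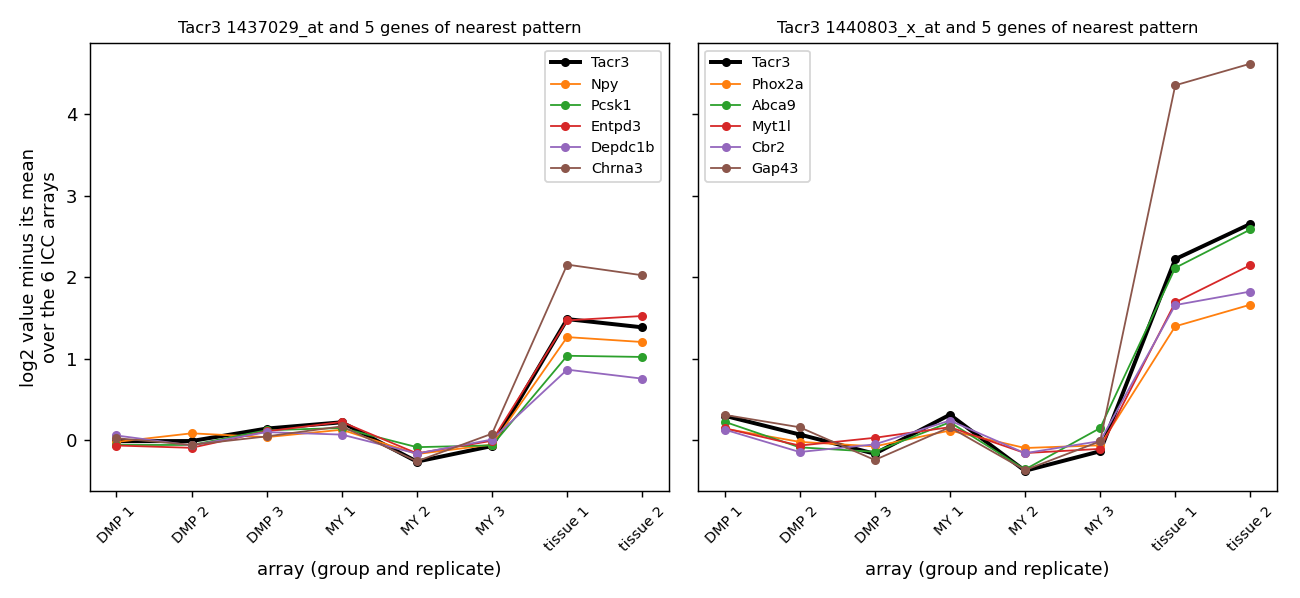
Log2 value minus its mean over the 6 ICC arrays (vertical axis) on each array for 2 Tacr3 probe sets (black) and the 5 genes of nearest pattern to each (colours). The ICC arrays lie near 0 for every gene, and both tissue arrays lie above them, from Depdc1b with the smallest rise on the left to Gap43 with the largest on the right.

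Markers of several cell types other than ICC moved with the Tacr3 difference. Those of mast cells, fibroblasts, endothelium and lymphocytes had fewer genes called lower and are given with the processing. All 11 enteric neuron markers measured had a probe set called lower in ICC-DMP than in tissue and 10 in ICC-MY. The shares over all genes called lower, against which this and the counts that follow are read, were 9.85% and 12.1%. The log2 of their summed level over 25 probe sets was 8.56 to 8.57 on the ICC-DMP arrays, 8.88 to 8.96 in ICC-MY and 12.6 to 13.3 in tissue. Snap25, a synaptic vesicle fusion gene, was at -6.08 (SE 0.27) in ICC-DMP and -6.26 (SE 0.27) in ICC-MY against tissue, and Vip, which encodes an inhibitory neuropeptide, at -6.64 (SE 0.31) and -6.80 (SE 0.31). Of 5 glial markers 4 were called lower in each class, with summed levels of 8.17 to 8.33 in ICC-DMP, 7.96 to 8.23 in ICC-MY and 9.68 to 10.3 in tissue. Macrophage markers were called lower for 5 of 7 genes in each class, with summed levels of 8.16 to 8.49, 8.60 to 8.62 and 10.8 to 11.9 in that order. All 5 mesothelial markers were called lower in each class, at 6.37 to 6.49, 6.18 to 6.23 and 12.1 to 12.6. Of 6 epithelial markers 4 were called lower in each class, at 7.66 to 8.17, 7.79 to 9.12 and 11.6 to 12.9. Smooth muscle markers were called lower for 7 of 10 genes in ICC-DMP and for all 10 in ICC-MY. Their summed levels were 14.4 to 14.7, 11.9 to 13.1 and 14.5 to 15.6. The part of these cell types in the Tacr3 difference was not tested. In such bulk samples fewer cells of a type and less RNA per cell cannot be told apart.

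The peptides that act on tachykinin receptors, and the enzymes that break them down, were described as a group of 6 genes with 11 probe sets, all of them measured. Tac1, which encodes substance P and neurokinin A, had the largest difference in the group against tissue. Its probe set 1416783_at read 4.73, 4.87 and 4.87 in ICC-DMP, 4.51, 4.62 and 4.59 in ICC-MY, and 10.31 and 10.92 in tunica muscularis. The difference from tissue was -5.79 in ICC-DMP (SE 0.19, adjusted p = 3.47e-06) and -6.05 in ICC-MY (SE 0.19, adjusted p = 3.29e-06). As with Tacr3, another probe set of the gene did not show it: 1431883_at of Tac1 lay between 3.08 and 3.68 on all arrays. Tac2, which encodes neurokinin B, the preferred ligand of the Tacr3 product, lay between 2.88 and 3.32, with no called difference. Tac4, for hemokinin, lay between 2.85 and 3.17, with none either.

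Ece1, for an endothelin-converting enzyme that also cleaves substance P, was higher in the ICC by 1434177_at and 1455741_a_at. Another of its probe sets, 1441423_at, did not show it and lay between 2.89 and 3.58 on all arrays. Ece1 1434177_at read 8.96, 8.2 and 8.39 in ICC-DMP, 6.88, 7.17 and 7.19 in ICC-MY, and 5.87 and 5.53 in tissue. Its groups did not overlap. The differences were 2.82 for ICC-DMP against tissue (SE 0.24, adjusted p = 0.000156), 1.38 for ICC-MY against tissue (SE 0.24, adjusted p = 0.00656, rising to 0.0503 when tissue replicate 2 is left out) and 1.44 between the classes (SE 0.21, adjusted p = 0.0046). In this group 1 of 6 genes was called higher and 1 lower in ICC-DMP against tissue, 1 and 2 in ICC-MY against tissue, and 1 and 0 between the classes. Over all genes the shares called higher and lower were 7.67% and 9.85%, 6.89% and 12.1%, and 6.91% and 4.05% in that order. Without tissue replicate 2, 0 genes of the group were called higher in ICC-MY. The group's median difference over probe sets was 0.05, 0.06 and -0.01 in the 3 comparisons, against -0.002, 0.032 and -0.021 over all probe sets.

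Of the other muscarinic receptor genes, Chrm1 and Chrm4 were measured, and those for M2 and M5 were not analysed here. None of their 3 probe sets was called in any comparison with all 8 arrays, and 0 of 2 genes passed. Chrm1 1439611_at was at 5.91 on the first tissue array and 4.55 on the second, against 4.42 to 4.99 in the ICC. The high tissue value was on 1 of the 2 arrays of narrow range, and the difference from tissue was -0.70 in ICC-DMP (SE 0.36, adjusted p = 0.331) and -0.62 in ICC-MY (SE 0.36, adjusted p = 0.38). It rests on that array. With it as the only tissue array, which leaves out tissue replicate 2, the differences were -1.38 (adjusted p = 0.0138) and -1.30 (adjusted p = 0.0192), and both were called. Without it, the difference in ICC-MY was 0.06. Chrm4 1450575_at lay between 2.54 and 2.90 on all arrays.

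Of 7 genes for making, moving and splitting acetylcholine (12 probe sets), 0 were called higher and 2 lower in each class against tissue. The 2 were Slc18a3 and Bche. Of all genes, 7.67% were called higher and 9.85% lower in ICC-DMP against tissue, and 6.89% and 12.1% in ICC-MY. Between the classes the shares were 6.91% and 4.05%. Bche encodes the butyrylcholinesterase that splits acetylcholine. Its probe set 1421218_at lay between 3.81 and 4.41 on all arrays, and the groups overlapped. Probe set 1437863_at read 3.18 to 3.21 in ICC-DMP, 2.84 to 3.05 in ICC-MY, and 3.68 and 4.27 in tissue. Bche 1436098_at read 7.97, 7.72 and 7.86 in ICC-DMP, 6.00, 6.53 and 6.90 in ICC-MY, and 8.89 and 10.02 in tissue. No groups overlapped. The difference from tissue was -2.98 in ICC-MY (SE 0.35, adjusted p = 0.00099) and -1.61 in ICC-DMP (SE 0.35, adjusted p = 0.0201). The call in ICC-DMP did not survive leaving out any 1 of the 3 ICC-DMP arrays (replicates 1, 2 and 3 gave an adjusted p of 0.059, 0.0714 and 0.0595), or tissue replicate 2 (0.1). Slc18a3, the vesicular acetylcholine transporter of cholinergic neurons, was at -0.99 in ICC-DMP (SE 0.18, adjusted p = 0.00849, rising to 0.062 when tissue replicate 1 is left out and to 0.0515 without the narrow-range arrays) and -0.83 in ICC-MY (SE 0.18, adjusted p = 0.0207, but 0.117 without that tissue array and 0.0653 without ICC-MY replicate 2). In ICC-MY it did not pass either when the narrow-range arrays were dropped (0.129), with only the compared groups fitted (0.0604) or with array weights (0.0516). Chat 1440070_at, for the enzyme that makes acetylcholine, lay between 3.79 and 4.32 with no call. The group's median difference was -0.32 in ICC-DMP and -0.33 in ICC-MY against tissue, and 0.08 between the classes, where Bche was called higher and Ache lower in ICC-DMP.

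Of the 10 Gq, phospholipase C beta and IP3 receptor genes measured, 1 was called between the ICC classes. Gna14, an alpha subunit of the Gq family, had means of 7.83 ± 0.26 (SD, n = 3) for ICC-DMP, 3.38 ± 0.24 (n = 3) for ICC-MY and 5.58 ± 0.28 (n = 2) for tissue by 1447791_s_at. ICC-DMP was higher than tissue by 2.25 (SE 0.22, adjusted p = 0.000292), ICC-MY was lower, at -2.20 (SE 0.22, adjusted p = 0.000381), and the classes differed by 4.45 (SE 0.19, adjusted p = 2.31e-05). A second probe set, 1449848_at, gave 2.58, -1.58 and 4.17 in these comparisons, all called. Plcb1, a phospholipase C beta gene, was lower than in tissue in ICC-DMP (-2.35, SE 0.28, adjusted p = 0.000843) and in ICC-MY (-2.93, SE 0.28, adjusted p = 0.000314). Itpr3, an IP3 receptor gene, was lower in ICC-DMP (-1.68, SE 0.19) and in ICC-MY (-1.47, SE 0.19). Itpr1, another IP3 receptor gene of the list, was not analysed here. Of 10 genes measured in this group (32 probe sets), 1 was called higher and 3 lower in ICC-DMP against tissue, 0 and 4 in ICC-MY against tissue, and 1 and 0 between the classes. The median differences were -0.04, -0.16 and 0.04. Over all genes the shares called higher and lower were 7.67% and 9.85%, 6.89% and 12.1%, and 6.91% and 4.05% in these comparisons.

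Among 7 receptor-operated cation channel genes (12 probe sets), 3 were called higher and 0 lower in ICC-DMP against tissue. The counts were 1 and 2 in ICC-MY against tissue, and 2 and 0 between the classes (medians 0.27, -0.10 and 0.47). Over all genes the shares were 7.67% and 9.85%, 6.89% and 12.1%, and 6.91% and 4.05% in that order. Without tissue replicate 1 the count higher in ICC-DMP was 1, because Trpc1 and Trpc4 were no longer called (adjusted p = 0.0618 for Trpc1 1421096_at and 0.0846 for Trpc4 1446366_at), and without ICC-DMP replicate 1 it was 2. The gene called higher in ICC-MY, Trpm4 (1.16, adjusted p = 0.0434), lost its call in 9 of 16 alternatives, including 7 of the 8 that leave out a single array (adjusted p = 0.0562 to 0.209); ICC-MY replicate 1 was the exception. Trpc6, for a channel opened downstream of muscarinic receptors in gut muscle, had means of 5.09 ± 0.08 (SD, n = 3) for ICC-DMP, 3.02 ± 0.12 (n = 3) for ICC-MY and 4.72 ± 0.12 (n = 2) for tissue. ICC-MY was lower than tissue (-1.70, SE 0.14, adjusted p = 0.000132) and ICC-DMP higher than ICC-MY (2.07, SE 0.12, adjusted p = 5.94e-05). Trpc4, for a channel with the same role, was lower in ICC-MY than in tissue by 1451033_a_at (-2.08, SE 0.35, adjusted p = 0.00561) and higher in ICC-DMP than in ICC-MY (2.60, SE 0.31, adjusted p = 0.00154). Against tissue another Trpc4 probe set, 1446366_at, gave a different picture. It was at -0.06 in ICC-MY (adjusted p = 0.944) and 1.34 in ICC-DMP (adjusted p = 0.0138), where 1451033_a_at was at 0.52 (adjusted p = 0.487). Trpm4, for a calcium-activated cation channel, was higher in ICC-DMP than in tissue (1.78, SE 0.31, adjusted p = 0.0061).

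Of 11 genes that switch off Gq-coupled receptors (31 probe sets), 0 were called higher and 2 lower in ICC-DMP against tissue. The counts were 1 and 4 in ICC-MY against tissue, and 4 and 0 between the classes (medians -0.26, -0.27 and 0.10). Over all genes the shares were 7.67% and 9.85%, 6.89% and 12.1%, and 6.91% and 4.05% in that order. Rgs4, which speeds the turning off of Gq, had means of 5.32 ± 0.25 (SD, n = 3) for ICC-DMP, 3.38 ± 0.06 (n = 3) for ICC-MY and 7.32 ± 0.45 (n = 2) for tissue. It was at -2.0 in ICC-DMP (SE 0.22, adjusted p = 0.000537) and -3.94 in ICC-MY (SE 0.22, adjusted p = 2.24e-05) against tissue, and the classes differed by 1.94 (SE 0.19, adjusted p = 0.000627). Rgs2, of the same family, was lower in ICC-MY than in tissue (-4.34, SE 0.35, adjusted p = 0.000143, by 1447830_s_at). Rgs16 was higher in ICC-MY than in tissue (1.87, SE 0.35, adjusted p = 0.0097). Arrb1, for a beta-arrestin, was higher in ICC-DMP than in ICC-MY (2.78, SE 0.45, adjusted p = 0.00699).

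Of 19 genes for other receptors of gut muscle (36 probe sets), 0 were called higher and 3 lower in ICC-DMP against tissue, and 16 were not called. In ICC-MY against tissue 2 were higher, 6 lower and 11 not called, and between the classes 5 were higher, 2 lower and 12 not called (medians -0.08, -0.04 and -0.04). The shares over all genes were 7.67% higher and 9.85% lower, 6.89% and 12.1%, and 6.91% and 4.05% in these comparisons. Ptger3, a prostaglandin E receptor gene, was lower in ICC-MY than in tissue (-2.66, SE 0.34, adjusted p = 0.00138) and higher in ICC-DMP than in ICC-MY (3.23, SE 0.30, adjusted p = 0.000435). Grpr, the gastrin-releasing peptide receptor gene, was higher in ICC-MY than in tissue (2.28, SE 0.18, adjusted p = 0.000127) and lower in ICC-DMP than in ICC-MY (-2.27, SE 0.16, adjusted p = 0.000131). Htr2b, a serotonin receptor gene, was lower than in tissue in ICC-DMP (-2.34, SE 0.34, adjusted p = 0.00265) and in ICC-MY (-2.86, SE 0.34, adjusted p = 0.00104). Lpar1, a lysophosphatidic acid receptor gene, was lower in ICC-DMP (-1.62, SE 0.19, adjusted p = 0.000847) and in ICC-MY (-2.88, SE 0.19, adjusted p = 5.59e-05). Agtr1a, for an angiotensin receptor, was lower in ICC-MY than in tissue (-1.64, SE 0.20, adjusted p = 0.000998).

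**Figure D4:**
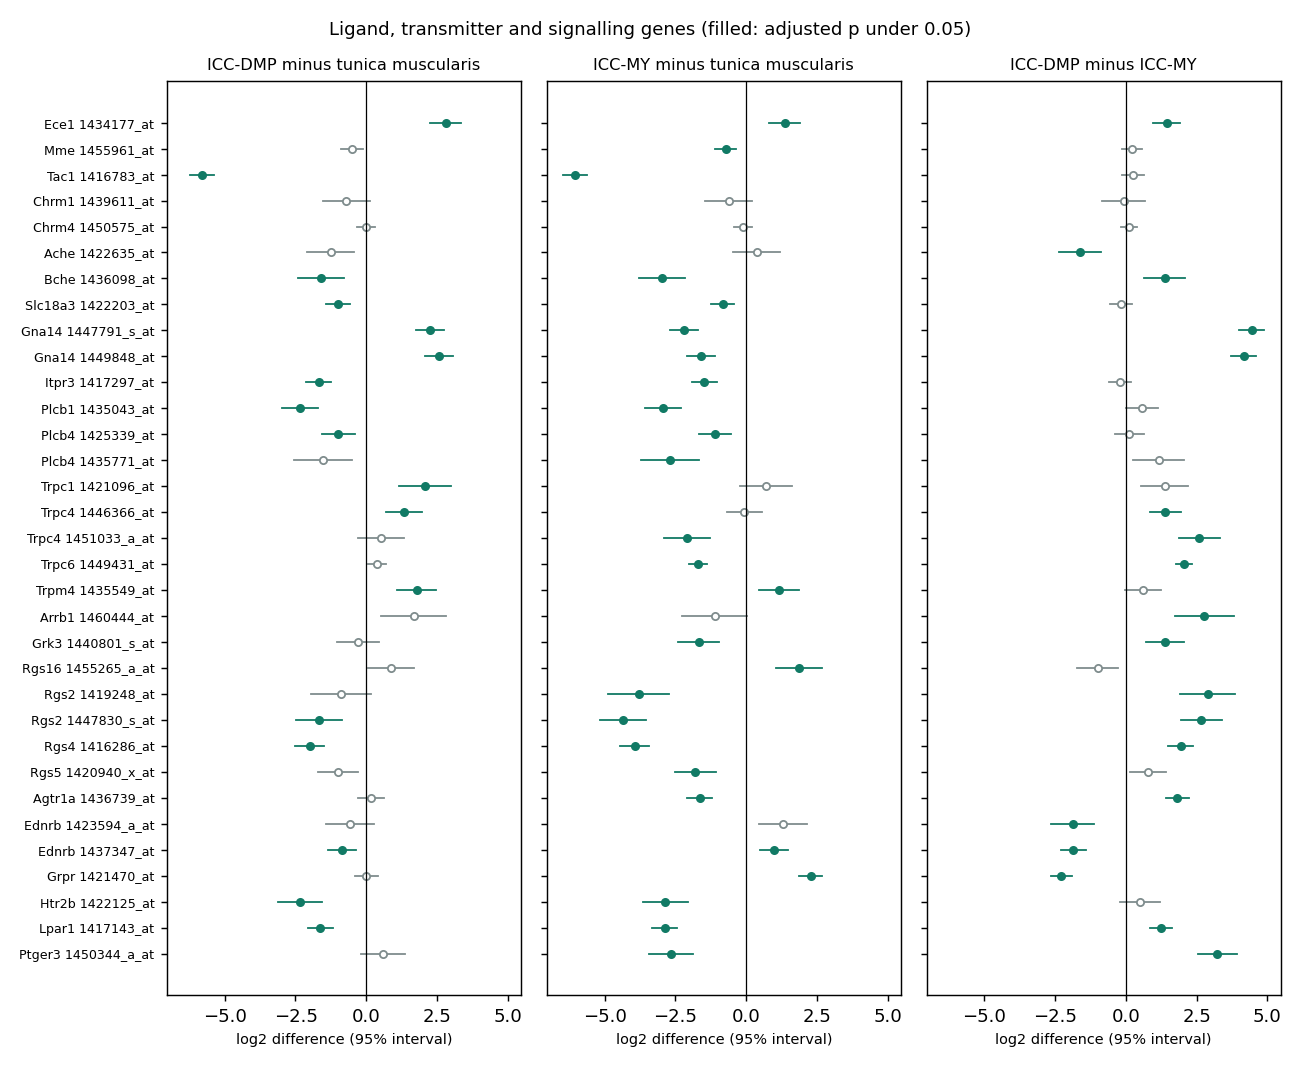
Log2 difference between groups (horizontal axis) with 95% intervals for ligand, transmitter and signalling probe sets in the 3 comparisons, filled where the adjusted p was under 0.05. Tac1 lies at -5.79 and -6.05 against tissue in the left and middle panels, and Gna14 lies above 0 in ICC-DMP and below 0 in ICC-MY.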

How the data were processed

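Each array has 1 deposited log2 value per probe set. Per the submitters' processing notes the tools were limma and RMA, given with no version and no role. Per the labels' protocols, about 50 ng of RNA went through 2 rounds of amplification, with an oligo(dT) primer first and random primers second, which can shift signal between probe sets of a gene. Of 45101 probe sets, 64 controls were left out. The platform annotation named 1 gene for 34945, several for 932 and none for 9160.

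All 8 arrays in 3 groups, taken from the titles, went into a single linear model per probe set with empirical Bayes moderation (limma 3.58.1 under R 4.3.3, residual degrees of freedom 5, prior 3.05), without a block. No value was imputed. The test was 2-sided. It was tested on simulated data with independent errors, which cannot show how it behaves where arrays share effects. Intervals are 95%, and the number of arrays limits their precision. Differences against tissue share the 2 tissue arrays.

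Titles share replicate numbers, and the deviations of same-numbered arrays correlated in every pair (0.12 to 0.57). Pairs with different numbers ran from -0.57 to 0.14. Those above the lowest same-numbered value were ICC-DMP replicate 3 with tissue replicate 1 (0.136) and ICC-MY replicate 3 with tissue replicate 2 (0.128). Tissue has no replicate 3, and the deviations of its 2 arrays mirror each other (-0.136 and -0.128 with the other tissue array). A positive value was bound to occur there, so these pairs cannot decide the question. Among the other pairs with different numbers the highest value was 0.006. Whether the numbers pair the samples is not settled, because the titles name no animal. The main tests ignore a possible pairing, and the replicate block was run as an alternative. The members and the 18 gene lists (154 entries) were chosen with earlier results of these data known. Named genes were all receptor probe sets, up to 4 non-overlapping called genes per list and comparison by size (else the 2 brightest), and the 5 nearest patterns. Of these, values in the report are given mainly for genes that kept their call under all 16 alternatives run, and marker lists are described by counts. All listed probe sets called between the classes are given, beyond that rule, and the alternatives for listed genes and their counts were added after the data had been seen. The marker lists of mast cells, fibroblasts, endothelium and lymphocytes had 6, 7, 6 and 5 genes measured. Of these 1, 2, 2 and 1 were called lower in ICC-DMP against tissue, and 0, 3, 1 and 0 in ICC-MY against tissue. The shares over all genes called lower were 9.85% and 12.1%. The endothelial marker Plvap was called higher in ICC-DMP, and no other gene of these lists was called higher against tissue.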

Additional observations from a re-analysis of the deposited data

Results flagged for a closer look

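None of the 6 receptor probe sets differed between ICC-DMP and ICC-MY by the test of that difference. Of the 137 probe sets of the listed ligand, transmitter and signalling genes, 28 did (17 genes), so that their differences from tissue were unequal in the 2 classes. Over all probe sets 7.41% did. The lists were chosen with earlier results of these data known, so their count set against that share is a description and no test. The 6 receptor probe sets are too few for a count of none to be set against it.

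Higher in ICC-DMP were 22 probe sets. These were Gna14 (4.45, 4.17 and 3.82 for its 3 probe sets), Ptger3 (3.23), Rgs2 (2.89, 2.82 and 2.66), Arrb1 (2.78), Trpc4 (2.60 and 1.40), Trpc6 (2.07), Rgs4 (1.94), Agtr1a (1.82), Ntsr1 (1.72), Ece1 (1.44 and 1.41), Grk3 (1.39 and 1.37), Bche (1.37), Lpar1 (1.26 and 1.25) and Cckar (1.26). Lower in ICC-DMP were 6, of Grpr (-2.27 and -1.81), Ednrb (-1.87, -1.86 and -1.03) and Ache (-1.62).

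In all the alternatives they could be tested in, 18 of the 28 kept their call. The other 10, of 8 genes, lost it only when a single array was left out. Leaving out any 1 of the ICC-DMP arrays ended the call of Bche (limma's adjusted p = 0.145, 0.102 and 0.114 for replicates 1, 2 and 3), of Ache (0.0699, 0.0664 and 0.0798), of Grk3 1440801_s_at (0.0525, 0.0502 and 0.058) and of Ece1 1455741_a_at (0.0581, 0.074 and 0.0676). The call of Bche also ended without ICC-MY replicate 1 (0.0777) or replicate 2 (0.0988), and that of Grk3 1440801_s_at without ICC-MY replicate 2 (0.0752). Without ICC-DMP replicate 1 the calls of Trpc4 1446366_at (0.0541), Ednrb 1423594_a_at (0.0567), Grk3 1434450_s_at (0.0578), Lpar1 1448606_at (0.0554) and Cckar (0.161) ended. Without ICC-DMP replicate 2 those of Grk3 1434450_s_at (0.0568), Ednrb 1426314_at (0.0619) and Lpar1 1448606_at (0.0622) did, and without ICC-DMP replicate 3 those of Ednrb 1426314_at (0.0527) and Cckar (0.154). Without ICC-MY replicate 2 Cckar (0.146), and without ICC-MY replicate 3 Cckar (0.119) and Lpar1 1448606_at (0.0533), were not called.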

How the results depend on the processing

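The 4 called Tacr3 differences kept their call under quantile normalization, median centring, the replicate block, fits of 2 groups only, array weights, an intensity trend and with each array left out. Leaving out single arrays moved them from -1.45 to -1.35 and -2.59 to -2.15 in ICC-DMP, and from -1.60 to -1.36 and -2.72 to -2.29 in ICC-MY, for 1437029_at and 1440803_x_at. With the replicate block they were -1.41 and -2.29 in ICC-DMP and -1.49 and -2.43 in ICC-MY, and the block changed the call of no receptor probe set.

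The dim filter left 0 of the 6 receptor probe sets called against tissue in either class, because it removed these 2 and that of Chrm3. With the brightest probe set per gene the count was also 0, with Tacr3 at -0.13 in ICC-DMP and 0.025 in ICC-MY against tissue and -0.15 between the classes. With averaged probe sets it was 1, and Tacr3 was at -1.30, -1.32 and 0.0196.

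Receptor differences that were not called changed sign in places. Tacr3 1450278_at in ICC-MY against tissue was -0.0147 under quantile normalization, -0.0195 with median centring, -0.0291 with the replicate block and -0.0625 to 0.11 with single arrays left out. Chrm3 was 0.12 in ICC-DMP and 0.0174 in ICC-MY against tissue without the 2 narrow-range arrays, and -0.34 to 0.12 and -0.44 to 0.0188 with single arrays left out. Tacr1 in ICC-MY against tissue was -0.0113 to 0.25. Between the classes, Tacr2 was -0.0177 under quantile normalization, and Tacr2, Tacr3 1437029_at and 1440803_x_at were -0.0449 to 0.12, -0.0343 to 0.21 and -0.0205 to 0.32 with single arrays left out.

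Over all features, 5657, 5691 and 3335 probe sets were called in ICC-DMP against tissue, ICC-MY against tissue and between the classes. Fewer features are tested per gene: 2009, 2516 and 1577 genes with the brightest probe set and 2505, 2802 and 1752 with averaged ones. With only 2 groups fitted, 3578 were called in ICC-MY against tissue, with fewer arrays behind the spread. With the replicate block 5236 were called between the classes, and with single arrays left out 1985 to 3670; the cause was not tested.

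For the listed genes the same alternatives were added after the data had been seen. Between the classes Chrm1 was 0.0165 under array weighting, 0.11 when the narrow-range arrays were dropped and -0.17 to 0.11 with single arrays left out. In ICC-MY against tissue it was -1.30 to 0.0607. Chrm4 in ICC-DMP against tissue was -0.0207 with median centring, -0.0254 with the replicate block, -1.3e-05 under array weighting and -0.0565 to 0.0617 with single arrays left out. Without tissue replicate 2 Chrm1 was called against tissue, at -1.38 in ICC-DMP and -1.30 in ICC-MY. With single arrays left out, the acetylcholine genes called lower numbered 1 to 3 in ICC-DMP and 1 to 2 in ICC-MY against tissue. The desensitization genes called lower numbered 1 to 3 and 3 to 5, and the genes for other receptors of gut muscle called higher in ICC-MY 1 to 3.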
